A study of Mus musculus with 16 samples.

Results

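Carbonic anhydrases were followed in RNA-seq libraries of mouse liver tumors and of the liver around them (peri-tumor tissue). The 10 genes Car1, Car2, Car3, Car4, Car5a, Car8, Car9, Car12, Car13 and Car14 were chosen by name as a gene family with Car3 in mind, after earlier results of these data were known. They are 10 of 54838 genes in the count table, and all 10 were found there by Ensembl ID. Another 6 genes of the family (Car5b, Car6, Car7, Car10, Car11 and Car15) served for comparison. The choice used no threshold, but because results were in view the p-values below describe these genes and are not independent support for the choice.

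All 16 libraries came from mice with the genotype label HrasG12V, an activated form of the Ras oncogene, controls included. The control group held 4 mice and the group given a traditional Chinese medicine (TCM) decoction held another 4. Each mouse gave 1 peri-tumor and 1 tumor library, so that 4 libraries stood in each of 4 groups: control peri-tumor, control tumor, TCM peri-tumor and TCM tumor. The labels carry "3 months" for every sample without saying whether it is age or length of treatment. The treatment text speaks of Ras-Tg mice and of mice induced with DEN, a chemical carcinogen, and does not tell if these animals got DEN. The sources used here do not give the promoter that drives the transgene, the strain, the make-up of the decoction or its dose. Mice are numbered 1 to 4 within each treatment.

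Carbonic anhydrases are zinc enzymes that turn carbon dioxide and water into bicarbonate and a proton, and back. The isoforms differ in where they sit: in the cytosol (Car1, Car2, Car3, Car13), in mitochondria (Car5a) or on the cell surface (Car4, Car9, Car12, Car14). Car8 has lost the catalytic activity. Hepatocytes use mitochondrial bicarbonate for the first step of the urea cycle and for gluconeogenesis, and Car3 is one of the abundant cytosolic proteins of rodent liver, with higher levels in males and around the central vein.

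Promoter sequence is shown for the 2 members that fell together most closely across libraries, Car5a and Car14, and for the hypoxia-regulated Car9. The sequences are from RefSeq (GRCm38.p6), whose table held 5 of the 10 members (Car4, Car5a, Car9, Car12 and Car14), and each runs 5′ to 3′ on the gene's own strand and ends just before the annotated start. The window of Car5a is chr8:121944913-121945162, minus strand, that of Car14 is chr3:95904686-95904935, minus strand, and the stretch of Car9 is chr4:43506996-43507025, plus strand. Capitals mark the letters CACGT, the reverse complement of ACGTG, which is a core of the sequence that hypoxia-inducible factors bind.
Car5a: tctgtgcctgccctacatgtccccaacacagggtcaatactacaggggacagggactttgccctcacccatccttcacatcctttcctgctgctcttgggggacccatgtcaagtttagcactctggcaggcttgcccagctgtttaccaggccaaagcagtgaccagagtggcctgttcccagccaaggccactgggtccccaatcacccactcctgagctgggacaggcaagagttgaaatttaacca
Car14: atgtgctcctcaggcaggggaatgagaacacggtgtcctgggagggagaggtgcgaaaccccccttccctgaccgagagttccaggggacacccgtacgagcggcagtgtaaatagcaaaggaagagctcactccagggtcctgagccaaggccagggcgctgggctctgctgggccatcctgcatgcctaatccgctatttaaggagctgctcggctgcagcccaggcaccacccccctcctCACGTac
Car9: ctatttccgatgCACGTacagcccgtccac
Both strands of the 250 bases before the start were searched for ACGTG, for the related core GCGTG and for TTCNNNGAA, which STAT factors bind. They were also searched for TATAAA, a core promoter element, and for AGGTCA, which nuclear receptors bind. None of these motifs contains another. ACGTG was found once in Car14, 3 to 7 bases before the start, and once in Car9, 14 to 18 bases before it. GENCODE M21 begins both genes further upstream than RefSeq, and its first exons cover the match in Car9 and all but the outermost base of that in Car14. ACGTG occurs in 16.6% of the 32851 windows of the table, GCGTG in 28.2%, TTCNNNGAA in 7.02%, TATAAA in 12.4% and AGGTCA in 14.0%. The other 4 motifs were not found in any of the 5 windows, and none of the 5 motifs was found in Car4, Car5a or Car12.

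Total counts ran from 13947483 to 16194224 per library. Levels are given as CPM, counts brought to a common library size after scaling for library composition, and, where genes are compared with each other, as the authors' FPKM, which also divides by gene length. Of the 10 members, 7 passed the filter on low counts and were tested with the edgeR quasi-likelihood test on all 14865 genes that passed. Genes with an adjusted p (Benjamini-Hochberg) under 0.05 are called. SE is an approximate standard error, the size of the log2 fold change divided by the square root of the test's F value. The 95% intervals of fold changes take this SE and the t distribution with 12 degrees of freedom, and are rough where counts are few. A gene that is high in 1 group only passes the filter through that group, so counts over the 7 do not speak for the whole family. Summed CPM of 10 hepatocyte markers (Alb, Apoa1 and others) was 100054 to 152477 in control peri-tumor and 160294 to 249936 in TCM tumor libraries, so the labelled tissue carried its defining transcripts throughout. Both libraries of control mouse 4 stood apart from the other controls in earlier results of these data, and values that move without them are given with the result. Kupffer cell markers (10 genes) summed to 915 to 1420 CPM in control and 559 to 642 in TCM peri-tumor tissue, and to 168 to 262 in control tumors and up to 344 (median 210) in TCM tumors. Cholangiocyte markers (13 genes) summed to at most 167 CPM in control (median 146) and 186 in TCM peri-tumor tissue (median 149), and to 1277 to 2664 in control and 651 to 1760 in TCM tumors. Most of the control tumor sum was Spp1 (880 to 2205 CPM, against 20.6 to 73.2 in peri-tumor tissue). Tspan8 had 292 to 359 against 0.892 to 6.36 CPM there, while Krt19 was lower in control tumors (0.0693 to 0.190 against 0.445 to 1.75). Of the 10 tested, 4 were higher and 1 lower in control tumors, with 22.0% and 21.2% of all tested genes called so. The part of these cell types in the values below was not tested. In bulk tissue, fewer cells of a type and less RNA per cell cannot be told apart. The labels give each mouse its own animal code, and the error is the spread between the 4 mice of a group.

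Per gene length, Car3 had the highest level of the family in peri-tumor tissue and in TCM tumors. In control peri-tumor tissue it had 331, 272, 702 and 485 FPKM, in TCM peri-tumor tissue 1070, 1072, 1087 and 1070. Mean levels in control peri-tumor tissue then fell in the order Car5a (54.5 FPKM), Car8 (20.1), Car14 (7.00), Car1 (2.71), Car2 (1.50) and Car13 (0.482). The libraries of neighbouring genes in that order did not overlap, except that Car1 (1.04 to 3.58) overlapped Car2 (1.27 to 1.98). In control tumors Car3 (4.55 to 71.8 FPKM) overlapped both Car8 (13.3 to 17.8) and Car5a (6.77 to 10.3), which did not overlap each other, and the order among these 3 by mean was Car3, Car8 and Car5a. In TCM tumors Car3 (98.5 to 367) stood above both again, while Car8 (18.2 to 21.6) and Car5a (17.2 to 21.7) overlapped.

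Summed over all 16 genes of the family, the level was 535 ± 187 FPKM (SD, n = 4) in control peri-tumor tissue, 54.8 ± 33.6 in control tumors, 1166 ± 4.23 in TCM peri-tumor tissue and 257 ± 117 in TCM tumors. As a mean of the shares in single libraries, Car3 made up 82.0% of that sum in control peri-tumor tissue and 40.1% in control tumors. It made up 92.2% in TCM peri-tumor tissue and 80.9% in TCM tumors. Without Car3, the sums were 87.3 ± 7.35, 27.6 ± 3.97, 91.4 ± 9.25 and 43.1 ± 3.31 FPKM in the same order. The family's level per length was thus mostly that of Car3 in every library outside the control tumors. In control tumors the share of Car3 ran from 15.4% to 68.8% between libraries. Car8 held 35.1% there on average (17.1% to 53.3%) and Car5a 18.4% (9.88% to 23.3%).

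**Figure D1:**
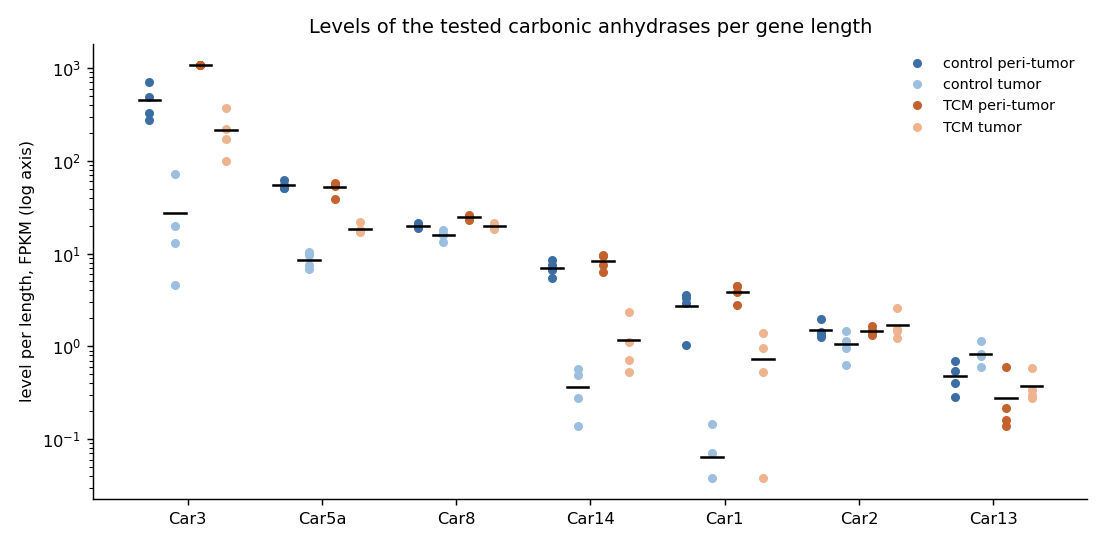
Level per gene length in FPKM (log axis) of the 7 tested members, with 1 point per library in each of the 4 groups and a black bar at the group mean; a library at 0 (Car1, control tumor 2) is not drawn. Car3 lies at 1070 to 1087 FPKM in TCM peri-tumor tissue and spans 4.55 to 71.8 in control tumors.

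Tumors of control mice held less carbonic anhydrase RNA of 5 kinds. Of the 7 tested members, 5 were lower (Car1, Car3, Car5a, Car8 and Car14), none was higher and 2 (Car2 and Car13) were not called. Of all tested genes, 43.2% were called in this comparison, 21.2% as lower. The median log2 fold change was -2.77 over the 7 members and 0.001 over all tested genes. In TCM mice the same 5 genes were lower in tumors, against 32.9% of all genes called and 15.6% called lower, with a median of -1.60 over the members and 0.004 over all genes. Each of the 5 was lower in the tumor than in the peri-tumor tissue of the same animal in 4 of 4 control and 4 of 4 TCM mice.

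TCM was compared with control in each tissue. In tumors 5 members were higher with TCM (the same Car1, Car3, Car5a, Car8 and Car14), with 7.28% of all genes called and 4.55% called higher, and medians of 1.17 for the members and 0.002 for all genes. In peri-tumor tissue 1 member, Car8, was called (higher), with 14.1% of all genes called, and medians of 0.32 and -0.004. The tumor effect itself differed between treatments for 1 member, Car5a, where 1.11% of all genes were called. These 5 comparisons share libraries: the control tumors, for example, enter the tumor effect in control mice, the treatment effect in tumors and the difference of the tumor effect, so the counts are not independent of each other.

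**Figure D2:**
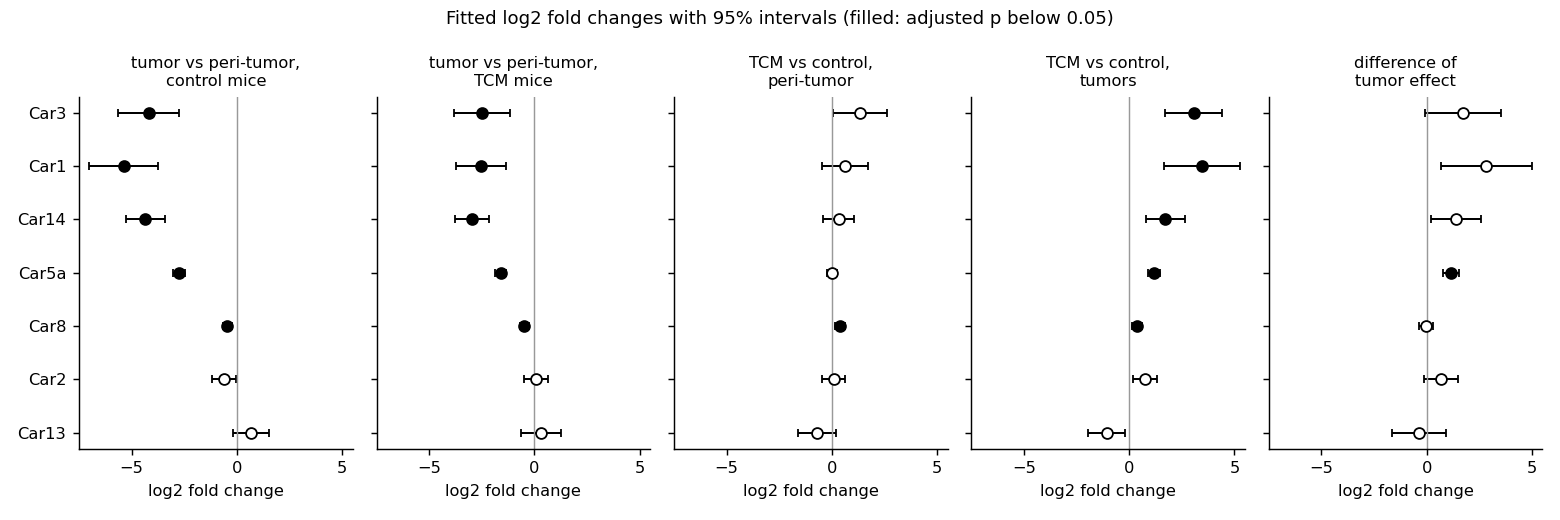
Fitted log2 fold change (points) with its 95% interval (bars) for the 7 tested members in the 5 comparisons, filled where the adjusted p is below 0.05. Car1, Car3, Car14, Car5a and Car8 lie left of 0 in both tumor comparisons and right of 0 for TCM against control in tumors, and only Car5a is filled for the difference of the tumor effect.

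Car3 is a cytosolic isoform with weak hydratase activity, otherwise known from skeletal muscle and fat. In control mice 1 to 4 it had 1268, 963, 2644 and 1911 CPM in peri-tumor tissue and 46.7, 16.3, 68.6 and 239 CPM in tumors. Every tumor lay below every peri-tumor library, and the tumor of mouse 4 was the highest of the 4 tumors. Relative to the peri-tumor tissue of the same mouse, Car3 in the tumors stood at 3.68%, 1.70%, 2.60% and 12.5%. The fitted change was -4.19 ± 0.66 (log2 ± SE, 18.3-fold lower, adjusted p = 0.000110, edgeR), and -5.28 without the tumor of mouse 4.

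In TCM mice 1 to 4, Car3 had 4218, 4075, 4854 and 4125 CPM in peri-tumor tissue and 1268, 619, 861 and 357 CPM in tumors. The peri-tumor libraries were close to each other, with a coefficient of variation of 8.39% against 43.9% in control peri-tumor tissue, while the tumors spread over a wide range. The tumors held 30.1%, 15.2%, 17.7% and 8.66% of the level next to them. The change was -2.48 ± 0.61 (log2 ± SE, 5.56-fold lower, adjusted p = 0.00548, edgeR). In TCM peri-tumor tissue Car3 took 0.398% to 0.405% of all counts and ranked 60 to 64 among genes by FPKM, and in control tumors it ranked 533 to 4936.

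Between treatments, the 4 TCM tumors (357 to 1268 CPM) all lay above the 4 control tumors (16.3 to 239). Car3 was 8.37-fold higher there (log2 3.06 ± 0.63, adjusted p = 0.0115, edgeR), and log2 4.16 without the tumor of control mouse 4. In peri-tumor tissue the 4 TCM libraries (4075 to 4854 CPM) again lay above the 4 controls (963 to 2644), by 2.55-fold (log2 1.35 ± 0.59), but the change was not called (adjusted p = 0.137, edgeR). It was called in a fit of these 2 groups alone (log2 1.34, adjusted p = 0.0206), without control mouse 4 (1.41, 0.0487) and without that mouse's tumor (adjusted p = 0.0464). In 15 of 16 fits that left out a library the peri-tumor change stayed uncalled, with adjusted p up to 0.292 (edgeR).

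The tumor effect on Car3 differed between treatments by 1.72 ± 0.83 on the log2 scale, with a 95% interval of -0.08 to 3.52, which was not called (adjusted p = 0.298, edgeR). Without both libraries of control mouse 4 the difference was 2.77 (adjusted p = 0.0330), and without that mouse's tumor alone 2.81 (0.0401). In 15 of 16 fits that left out a library it stayed uncalled, with values down to 1.39 and adjusted p up to 0.455 (edgeR).

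**Figure D3:**
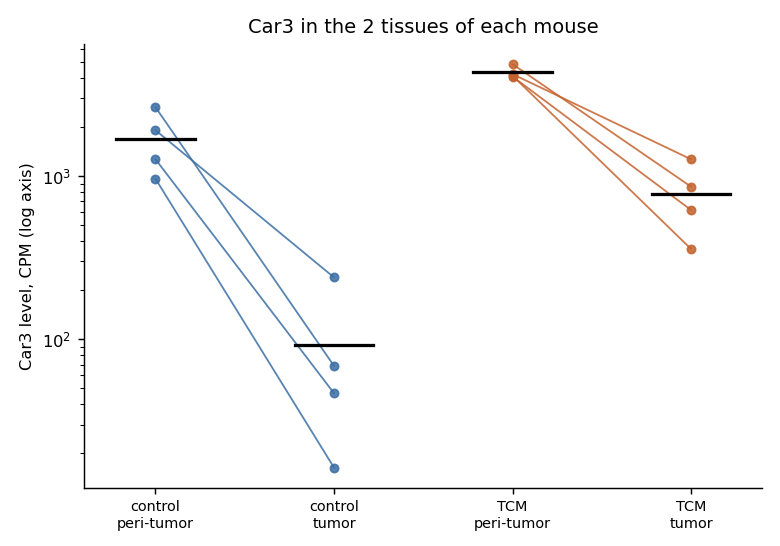
Car3 level in CPM (log axis) in the peri-tumor and tumor library of each mouse, joined by a line, for 4 control mice (blue) and 4 TCM mice (orange), with black bars at the group means. All 8 lines fall, and the TCM tumors (357 to 1268 CPM) lie above the control tumors (16.3 to 239 CPM).

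Muscle and fat, the other tissues known for Car3, were checked by their markers. The summed level of 15 skeletal muscle markers was 0.890 to 3.57 CPM over all libraries, with 8 to 12 of the 15 at 0 in every library of a group, and Ckm, Acta1 and Myh4 had 0 to 3 counts per library. The 12 adipocyte markers summed to 71.7 to 104 CPM in control peri-tumor tissue (median 92.0) and to at most 151 in control tumors (median 136), to 88.1 to 129 in TCM peri-tumor tissue and to 112 to 219 in TCM tumors. Their defining members Plin1 and Lep were at 0 in all libraries, and Adipoq had 0 to 4 counts. Among the 7 adipocyte markers that were tested, 3 were higher and 1 lower in control tumors, with the same counts in TCM tumors. Over all tested genes, 22.0% and 21.2% were called so in control tumors and 17.3% and 15.6% in TCM tumors. Cidec had at least 19.2 CPM in control tumors against at most 1.95 in control peri-tumor tissue, whereas Plin4 had at most 1.25 against 1.19 to 3.31. The part of muscle or fat cells in the Car3 values was not tested.

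Car3 is known as one of the growth hormone-dependent, male-biased genes of mouse liver and as a pericentral gene. Of 23 other male-biased or growth hormone-pathway genes, 14 were lower and none higher in tumors of control mice (median log2 -2.37), with the same counts in TCM mice (median -2.28), where 21.2% and 15.6% of all tested genes were called lower. Their summed level was 7446 to 28582 CPM in control and 20451 to 24976 in TCM peri-tumor tissue, and 3 of the 23 were higher with TCM there, with 6.71% of all genes called higher: Ugt2b38 (log2 1.31 ± 0.20), Cyp4a12b (3.02 ± 0.82) and Cyp4a12a (3.56 ± 1.09). Cyp4a12a, a fatty acid hydroxylase, spread from 0.726 to 104 CPM in control peri-tumor tissue and had 382 to 480 CPM in every TCM library of that tissue. In tumors 1 of the 23, Ghr, was higher with TCM and none was lower (median log2 0.66, 4.55% of all genes called higher). Of 22 pericentral genes, 20 were lower in control tumors and 19 in TCM tumors. In tumors 7 of them were higher with TCM and none was lower (median 0.78), where 4.55% of all genes were called higher. In peri-tumor tissue 1 of the 22 was higher and 1 lower with TCM (median -0.09), with 14.1% of all genes called. The part of zonation or of growth hormone signals in the Car3 values was not tested.

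The genes whose log2 CPM ran most like Car3 over the 16 libraries were Slc22a30 (Pearson r = 0.990), Mup10 (0.982), Ces3a (0.978), Cyp3a25 (0.978) and Mup12 (0.977). With the group means removed, r was still 0.97, 0.96, 0.97, 0.80 and 0.97, so these genes followed Car3 from mouse to mouse within groups too. The r values are a description over 16 libraries that share tissues and mice, and Mup10 and Mup12 belong to a family of near-identical genes whose counts can be split uncertainly.

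Car5a is the mitochondrial isoform that supplies bicarbonate to carbamoyl phosphate synthetase. Control mice 1 to 4 had 79.8, 85.4, 73.1 and 76.2 CPM in peri-tumor tissue and 13.5, 9.35, 10.03 and 13.2 in tumors. TCM mice 1 to 4 had 80.9, 83.2, 67.2 and 84.1 CPM in peri-tumor tissue and 28.7, 25.0, 25.7 and 24.3 in tumors. The 2 peri-tumor groups overlapped throughout, and the lowest TCM tumor stood at 24.3 against 13.5 for the highest control tumor.

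Car5a was thus 6.82-fold lower in control tumors (log2 -2.77 ± 0.13, adjusted p = 2.99e-09, edgeR) and 3.04-fold lower in TCM tumors (-1.60 ± 0.12, 3.21e-07). The tumors retained 11.0% to 17.3% of the matched peri-tumor level in control mice and 28.9% to 38.2% in TCM mice, ranges that did not overlap. With TCM it was 2.25-fold higher in tumors (log2 1.17 ± 0.12, adjusted p = 0.000272) and did not differ detectably in peri-tumor tissue (0.00, 95% interval -0.25 to 0.26, adjusted p = 0.988). The difference of the tumor effect was 1.17 ± 0.17 (adjusted p = 0.00373), with the direction and the call kept in all 16 fits that left out a library (adjusted p 0.00332 to 0.0125).

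Exons of Car5a overlap those of the opposite-strand RNA BC048644, which had 237 counts against 11878 for Car5a over all libraries. BC048644 also fell in control tumors (log2 -2.82 ± 0.56). The sources used here do not say if the counting used the strand, and the counts of BC048644 were few beside those of Car5a. Of the 50-base words of the longest Car5a transcript, 22.4% occur in any of 354 other genes, so some of its reads may not be unique to it. Among the genes most like Car5a over the 16 libraries were Magix (r = 0.988), Haao (0.986), Sirt3 (0.985) and Dmgdh (0.985). With group means removed, r was lower, at 0.67, 0.77, 0.50 and 0.54. Sirt3 is a mitochondrial deacetylase, and Dmgdh is a mitochondrial enzyme of choline breakdown.

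Car14 is a membrane-bound isoform with its active site outside the cell, found on hepatocytes. It had 24.1, 25.0, 19.3 and 31.9 CPM in peri-tumor tissue of control mice 1 to 4 and 0.951, 1.94, 0.450 and 1.55 in their tumors. In TCM mice 1 to 4 it had 35.2, 35.2, 31.7 and 23.2 CPM in peri-tumor tissue and 7.72, 2.48, 1.95 and 3.83 in tumors. All 8 tumors lay below all 8 peri-tumor libraries, and the lowest TCM tumor (1.95) was just above the highest control tumor (1.94).

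The tumor effect on Car14 was -4.35 ± 0.42 on the log2 scale in control mice (20.4-fold lower, adjusted p = 1.19e-06, edgeR) and -2.96 ± 0.37 in TCM mice (7.78-fold lower, 2.88e-05). In tumors it was 3.28-fold higher with TCM (log2 1.72 ± 0.43, adjusted p = 0.0258). That call was lost without control tumor 1, control tumor 3 or TCM tumor 1 (lowest log2 value 1.20, adjusted p up to 0.0715) and in a fit of the tumor groups alone (1.69, 0.0887). The difference of the tumor effect (1.39 ± 0.54, adjusted p = 0.196) and the treatment effect in peri-tumor tissue (0.32 ± 0.34, 0.566) were not called.

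Car14 shares 24% of the 50-base words of its longest transcript with the opposite-strand gene Aph1a, a subunit of gamma-secretase, so reads of the 2 genes may have been mixed if strand was ignored. Aph1a moved less: its log2 fold change was -1.11 ± 0.13 in control tumors and -0.49 ± 0.13 in TCM tumors, and between treatments -0.44 ± 0.13 in peri-tumor tissue, where Car14 had 0.32, and 0.17 ± 0.13 in tumors. Car14 ran with Car5a at r = 0.96 over the 16 libraries, a closer match than any other pair of the 7 members, although with group means removed r was 0.17. Its own nearest genes were Sult5a1 (0.973), Acox3 (0.969), Mmd2 (0.968), Tmem250-ps (0.961) and Cyp27a1 (0.960). Their r with group means removed was 0.64, 0.75, 0.67, 0.38 and 0.37.

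Car8, the member without enzyme activity, binds the inositol trisphosphate receptor. It had 77.0, 76.7, 82.4 and 76.6 CPM in peri-tumor tissue of control mice 1 to 4 and 61.6, 58.5, 47.6 and 61.6 in their tumors. TCM mice 1 to 4 had 94.7, 103, 113 and 100 CPM in peri-tumor tissue and 69.7, 71.5, 86.7 and 68.2 in tumors. All 4 groups were separate except that the TCM tumor of mouse 3 (86.7) exceeded the control peri-tumor libraries.

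The changes of Car8 were small and of like size in both treatments, with 1.36-fold lower levels in control tumors (log2 -0.45 ± 0.10, adjusted p = 0.00250, edgeR) and 1.39-fold lower ones in TCM tumors (-0.47 ± 0.10, 0.00235). With TCM it was 1.32-fold higher in peri-tumor tissue (log2 0.40 ± 0.10, adjusted p = 0.0204) and 1.29-fold higher in tumors (0.37 ± 0.10, 0.0419). The call in tumors was lost in 8 of 16 fits that left out a library and that in peri-tumor tissue in 3 of 16, with adjusted p up to 0.139 and 0.0631. With all libraries, the call in tumors was also lost without a filter (0.0768), with only the tumor groups (0.106) and with the replicate number as a block (0.0677). The difference of the tumor effect was -0.03 ± 0.15, with a 95% interval of -0.35 to 0.29. The nearest genes were Dld (r = 0.964) and Sucla2 (0.953), both enzymes of mitochondrial energy metabolism, then Cideb (0.950), Aadac (0.950) and Parva (0.940). Their r with group means removed was 0.69, 0.66, 0.75, 0.63 and 0.56.

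Car1, Car2, Car3 and Car13 lie in 1 cluster on chromosome 3 (GRCm38, GENCODE M21). Car13 is at 14641727 to 14663002 on the plus strand, Car1 at 14766216 to 14808368 on the minus strand, Car3 at 14863512 to 14872523 and Car2 at 14886273 to 14900770, both on the plus strand. Car2 thus begins 13.8 kb past the end of Car3. Within the cluster, Car1 and Car3 fell in tumors of both treatments, and Car2 and Car13 were not called in any of the 5 comparisons. Of the tested neighbours beyond Car13, E2f5 had log2 fold changes of -0.02 ± 0.17 in control and 0.04 ± 0.17 in TCM tumors, 1810022K09Rik -0.01 ± 0.17 and -0.38 ± 0.17, and Lrrcc1 was higher (1.13 ± 0.37 and 0.97 ± 0.36).

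**Figure D4:**
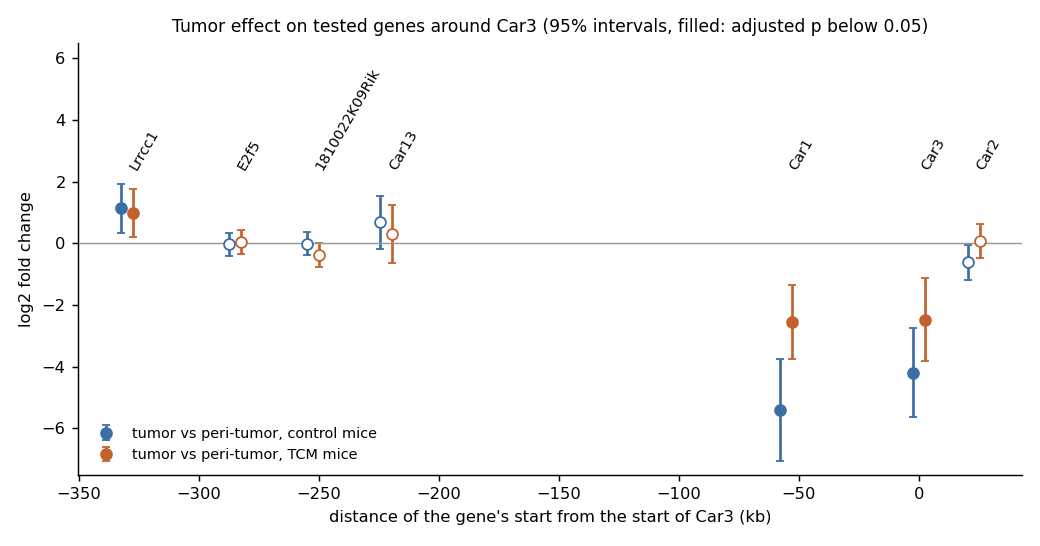
Log2 fold change of tumor against peri-tumor tissue (points, with 95% intervals as bars, filled where the adjusted p is below 0.05) in control (blue) and TCM mice (orange), against the distance in kb from the start of Car3, for the tested genes around it. Car1 and Car3 lie well below 0 (-5.39 and -4.19 in control mice), between Car13 and Car2, whose points are open (0.69 and -0.61 in control mice).

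Car1, a cytosolic isoform best known from red blood cells, had 6.75, 5.08, 6.11 and 2.02 CPM in peri-tumor tissue of control mice 1 to 4 and 0.127, 0, 0.0643 and 0.239 in their tumors, the latter from 2, 0, 1 and 4 counts (0.119 CPM over the pooled group, exact 95% Poisson interval 0.0479 to 0.246). It passed the filter through peri-tumor tissue. In TCM mice 1 to 4 it had 8.59, 7.29, 9.90 and 5.24 CPM in peri-tumor tissue and 2.37, 1.74, 1.01 and 0.0684 in tumors. Tumor and peri-tumor libraries did not overlap in either treatment, while the TCM tumor of mouse 4 fell among the control tumors.

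The tumor effect on Car1 was -5.39 ± 0.76 in control mice (log2 ± SE, 41.9-fold lower, adjusted p = 3.89e-05, edgeR; -6.10 without the tumor of control mouse 4) and -2.55 ± 0.55 in TCM mice (5.87-fold, 0.00206). In tumors Car1 was 11.1-fold higher with TCM (log2 3.47 ± 0.82, adjusted p = 0.0217; 4.18 without control tumor 4), a call that was lost without control tumor 2, control tumor 3 or TCM tumor 1 (adjusted p up to 0.0635). In a fit of the tumor groups alone Car1 did not pass the filter and was not tested. In peri-tumor tissue it was not called (0.63 ± 0.49, adjusted p = 0.427), nor was the difference of the tumor effect (2.84 ± 0.99, 0.151), which DESeq2 called (2.92, 0.0465). That difference was also called without TCM tumor 4 (adjusted p = 0.0392), and it was 3.83 without control mouse 4 (0.0611) and 3.55 without that mouse's tumor, neither called.

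Summed red-cell precursor and red-cell markers (14 genes) were 548 to 796 CPM in control peri-tumor, 249 to 566 in control tumor, 486 to 754 in TCM peri-tumor and 284 to 398 in TCM tumor libraries. Of the 7 tested, 4 were lower and 1 higher in control tumors (43.2% of all genes called) and 2 were lower in TCM tumors (32.9%). Klf1, a red-cell transcription factor, was 7.93-fold lower in control and 2.65-fold lower in TCM tumors, and Alas2, the red-cell enzyme of haem synthesis, was 3.86-fold and 3.71-fold lower. With TCM, Alas2 was 2.95-fold higher in tumors and 2.83-fold higher in peri-tumor tissue, unlike the list as a whole. Of the 7, 1 was higher and 1 lower with TCM in peri-tumor tissue (median log2 -0.38, 14.1% of all genes called). In tumors 1 was higher and none lower (median -0.26, 7.28% of all genes called). Hbb-bs, a globin gene, had 54.3 to 84.3 CPM in TCM and 81.0 to 150 in control peri-tumor tissue. The part of red cells and their precursors in the Car1 values was not tested. The genes most like Car1 over the 16 libraries were Cyp2c54, Cyp2c50 and Pon1 (r = 0.985 each), Tarsl2 (0.977) and Rgn (0.977), and with group means removed r was 0.97, 0.92, 0.93, 0.87 and 0.86. Cyp2c54 and Cyp2c50 are cytochrome P450 genes and Pon1 is a serum esterase, all made by hepatocytes. Car1 shares 14.5% of its 50-base words with the pseudogene Gm5843, which had 23 counts in all libraries against 855 for Car1.

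Car2, the fast cytosolic isoform of many tissues, had 4.46, 5.75, 3.94 and 4.26 CPM in control peri-tumor tissue and 2.85, 1.87, 4.18 and 3.10 in control tumors. It had 4.30, 4.72, 6.05 and 4.41 CPM in TCM peri-tumor and 3.46, 7.76, 4.90 and 4.38 in TCM tumor tissue. All groups that were compared overlapped. The values closest to a call were a log2 fold change of -0.61 ± 0.26 in control tumors (adjusted p = 0.0712, edgeR) and 0.77 ± 0.26 for TCM against control in tumors (0.0841). The first was called in 3 of 16 fits that left out a library (without control tumor 3, TCM tumor 1 or TCM tumor 2, lowest adjusted p 0.0253). In TCM tumors the 95% interval of the tumor effect was -0.48 to 0.64, and in peri-tumor tissue that of the treatment effect was -0.48 to 0.64 as well, which leaves room for changes of up to that size. The genes most like Car2 were Armc8 (r = 0.861), Fam92a (0.796), Hnmt (0.787), Spag4 (0.773) and Psmg1 (0.769), a looser likeness than the leading genes of the other 6 members had. After removal of the group means their r was 0.76, 0.67, 0.53, 0.68 and 0.72.

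Car13, another cytosolic isoform, had 0.955, 1.51, 1.27 and 0.698 CPM in control peri-tumor tissue and 1.84, 1.73, 1.29 and 2.33 in control tumors. It had 0.529, 1.42, 0.378 and 0.384 CPM in TCM peri-tumor and 0.729, 1.30, 0.721 and 0.616 in TCM tumor tissue. Its mean was higher in tumors, unlike that of Car1, Car3, Car5a, Car8 and Car14, but no comparison was called (log2 0.69 ± 0.39, adjusted p = 0.171 in control mice and 0.31 ± 0.43, 0.616 in TCM mice, edgeR). TCM against control gave -1.08 ± 0.40 in tumors (adjusted p = 0.109) and -0.71 ± 0.42 in peri-tumor tissue (0.282), both not called. Without TCM peri-tumor library 2, the latter was -1.35 and was called (adjusted p = 0.0396), and the tumor effect in TCM mice was 0.96. Within control mice Car13 was higher in the tumor in 4 of 4 animals, by 0.01 to 1.57 on the log2 scale. In TCM mice it was higher in 3 and lower in 1 (-0.11 to 0.74). The genes most like Car13 were Syk (r = 0.875), Ms4a6d (0.856), Csf2rb2 (0.851), Nod2 (0.849) and Pprc1 (0.830), of which Syk, Ms4a6d, Csf2rb2 and Nod2 are known from immune cells of the myeloid line. After removal of the group means r was 0.74, 0.72, 0.67, 0.77 and 0.54.

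**Figure D5:**
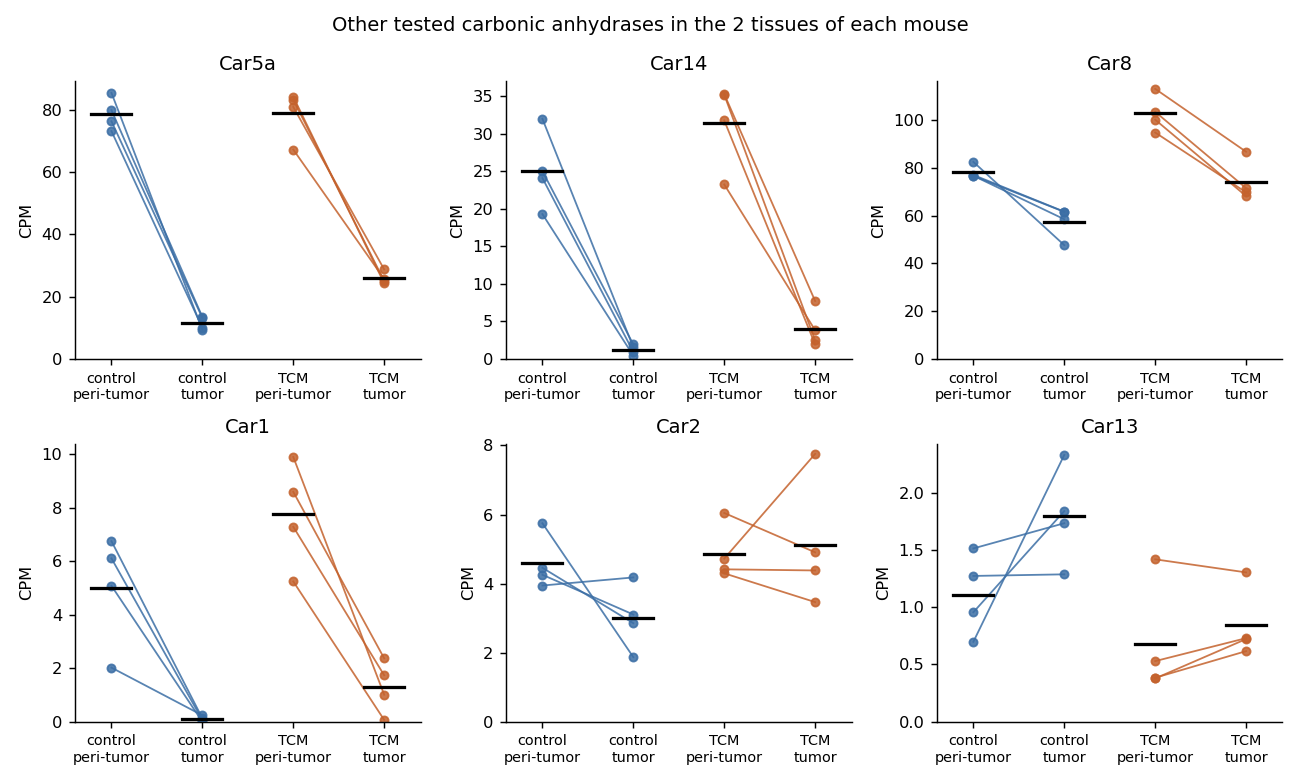
Level in CPM (axis from 0) of Car5a, Car14, Car8, Car1, Car2 and Car13 in the peri-tumor and tumor library of each mouse, joined by a line, for control (blue) and TCM mice (orange), with black bars at the group means. The lines of Car5a, Car14, Car8 and Car1 all fall, and those of Car2 and Car13 go both ways.

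Car9 and Car12, surface isoforms that hypoxia and tumor growth are known to induce, and Car4, a surface isoform of capillaries, did not pass the filter. Car9 had 7, 6, 4 and 4 counts in control peri-tumor, 6, 2, 1 and 5 in control tumor, 1, 1, 0 and 2 in TCM peri-tumor and 2, 2, 3 and 1 in TCM tumor libraries. Pooled over a group, that is 0.334 CPM (exact 95% Poisson interval 0.206 to 0.510) in control peri-tumor and 0.238 (0.130 to 0.400) in control tumor tissue, so no rise in tumors was detectable at this depth. The pooled values were 0.0633 (0.0172 to 0.162) in TCM peri-tumor and 0.134 (0.0578 to 0.264) in TCM tumor tissue. In peri-tumor tissue the TCM interval lay below that of controls. Across mice, Car9 was tested only in fits without this filter on low counts. With no filter, 1 member was called for TCM in peri-tumor tissue. That member was Car8, so Car9 was not called. An antisense RNA, Gm12454, overlaps exons of Car9 and had 24 counts against 47 for Car9. Intervals and limits of this kind cover counting error only.

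Car12 had 0 counts in all 8 peri-tumor libraries, which allows up to 0.0476 CPM in control and 0.0474 CPM in TCM tissue (3 counts over the pooled group). It had 4 and 2 counts in control tumors 2 and 4, 3 counts in TCM tumor 1 and 0 in the other tumors. Car4 had 1 and 1 count in control peri-tumor libraries 2 and 3, 2 and 2 in TCM peri-tumor libraries 1 and 2, 2 in TCM tumor 4 and 0 elsewhere. In control tumors its limit was 0.0511 CPM. These 3 genes can be described only as near the detection limit of libraries of this size.

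Because Car9 and Car12 are hypoxia-regulated, other hypoxia target genes were counted. Of 22 tested, 6 were higher and 8 lower in control tumors (median log2 0.14), and 2 were higher and 5 lower in TCM tumors (median -0.03). Over all tested genes 43.2% and 32.9% were called in these comparisons. Pfkfb4, which controls glycolysis, was higher in both (2.51 ± 0.26 and 2.50 ± 0.26), and Mxi1 was lower in both (-0.87 ± 0.14 and -0.69 ± 0.14). In tumors, 3 of the 22 were lower with TCM and none was higher: Ero1l (-0.74 ± 0.12), Adm (-1.37 ± 0.28) and Aldoa (-0.56 ± 0.16). Over all tested genes, 2.72% were called lower and 4.55% higher in that comparison.

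Of the 6 other family genes, Car5b and Car7 were tested. Car5b, the second mitochondrial isoform, was at 1.45 to 6.35 CPM in all libraries and was not called in any comparison (edgeR). In control tumors its log2 fold change was -0.04 ± 0.35 (95% interval -0.80 to 0.72), where Car5a had -2.77. For TCM against control in tumors it was 0.63 ± 0.34, and its 95% interval of -0.12 to 1.38 holds the 1.17 of Car5a. Car7, a cytosolic isoform known from brain, was lower in control tumors (0.317 to 1.09 CPM against 1.27 to 1.66, log2 -0.88 ± 0.30, adjusted p = 0.0284) and not called elsewhere. Car10 had no counts, and Car6, Car11 and Car15 did not pass the filter.

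Genes that use or carry bicarbonate were listed separately. Of 9 enzymes that fix bicarbonate, 5 were lower and 1 higher in control tumors (median log2 -0.55), and 5 were lower in TCM tumors (median -0.64), with 21.2% and 15.6% of all tested genes called lower. Cps1, which takes the bicarbonate that Car5a makes into the urea cycle, fell from 2647 to 4233 CPM in control peri-tumor tissue to 934 to 1437 in control tumors (log2 -1.62 ± 0.22). Mccc2, of leucine breakdown, and Pcca and Pccb, of propionate breakdown, fell by 1.21 ± 0.10, 1.09 ± 0.13 and 0.91 ± 0.11. With TCM, Pcca was higher in tumors (0.83 ± 0.13) and in peri-tumor tissue (0.73 ± 0.13), whereas Cad, of pyrimidine synthesis, was lower in both (-0.65 ± 0.16 and -0.62 ± 0.17). Cps1 was not called with TCM in either tissue. It had 731 to 1271 CPM in TCM tumors, and its change in peri-tumor tissue was -0.53 ± 0.22 (adjusted p = 0.119, edgeR).

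Of 11 urea cycle and ammonia genes, 10 were lower and 1, Glud1, was higher in control tumors (Glud1 1.52 ± 0.14, Ass1 -2.25 ± 0.18, Glul -3.54 ± 0.36). Over all tested genes, 21.2% were called lower and 22.0% higher there. In TCM tumors 9 were lower and 1 higher, with 15.6% and 17.3% of all genes called so. Between treatments, 4 of the 11 were higher in TCM than in control tumors (4.55% of all genes called higher), among them Otc (1.09 ± 0.27) and Ass1 (0.78 ± 0.17). Otc ranged from 60.5 to 99.7 CPM in control and from 66.5 to 226 in TCM tumors, so these groups overlapped, unlike those of Car5a. Of 15 tested transporters of bicarbonate, protons or ammonia, 3 were higher and 3 lower in control tumors, and 3 higher and 1 lower in TCM tumors, against 43.2% and 32.9% of all tested genes called. Rhbg, an ammonia transporter of pericentral hepatocytes, fell in both (-2.25 ± 0.29 and -2.01 ± 0.29), and Slc4a4, a sodium bicarbonate cotransporter, was higher with TCM in peri-tumor tissue (0.88 ± 0.16).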

How the data were processed

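RNA was isolated with the mirVana kit and sequenced after VAHTS stranded mRNA-seq library preparation, per the labels' protocols. The deposited table holds the authors' raw counts per gene, and the deposited FPKM files hold FPKM per library. FPKM and counts gave the same gene lengths in all libraries (highest deviation 0.0016% over 11816 genes). Builds mm9 and mm10 are named in the submitters' processing notes, while the sources used here do not give the aligner or the counter.

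Counts were scaled (TMM) and tested with edgeR 4.0.16 (R 4.3.3): filterByExpr on 4 groups, 1 mean per group over 16 libraries, quasi-likelihood F tests on 14865 genes with 12 residual degrees of freedom. The genes and lists were chosen with earlier results of these data known. From each list, up to 4 genes with the lowest p and at least 1 CPM were named, and 5 genes by likeness, of which 1 is not reported here. Entries without a symbol held at most 0.0171% of a library. The test was tried on simulated data. Alternatives were RLE factors, DESeq2 1.42.0, other filters, fewer groups, blocks and left-out libraries.

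Animal codes pair the tissues of a mouse. With group means removed, tumor and peri-tumor libraries of a mouse correlated at 0.15, 0.12, 0.063 and 0.23 (control) and 0.24, 0.043, 0.091 and 0.11 (TCM), and 7 of 8 mice correlated best with themselves. Shared sequence is the percent of 50-base words of a gene's longest transcript found in other genes (GENCODE M21).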

Additional observations from a re-analysis of the deposited data

Results flagged for a closer look

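Car5a is listed because its tumor effect differed between treatments (log2 difference 1.17, TCM minus control, edgeR). In addition, 3 single values stood far from the other 3 libraries of their group, among 28 sets of a gene and a group, where chance gives about 1 in 20. Car8 in control peri-tumor library 3 was at 82.4 CPM, against 76.6 to 77.0 in the others, a gap that is small beside the group differences of that gene. Car13 in TCM peri-tumor library 2 was at 1.42 CPM, against 0.378 to 0.529, and in TCM tumor library 2 at 1.30 CPM, against 0.616 to 0.729. Both of these libraries are from the same mouse.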

How the results depend on the processing

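The 5 members called in tumors of control and of TCM mice were 5 in number under every alternative with all libraries, and 5 to 6 and 5 without 1 library in turn. Treatment calls moved more. In peri-tumor tissue, 1 member and 2091 genes became 2 members with only the groups compared, 2 members and 3434 genes without control mouse 4, and 0 to 2 members and 1101 to 3228 genes without 1 library. In tumors, 5 members and 1082 genes became 2 members with only the groups compared, 687 genes with no filter, 1761 with DESeq2, 1877 without control mouse 4, and 2 to 5 members and 404 to 1524 genes without 1 library. For the difference of the tumor effect, 1 member and 165 genes became 79 genes with no filter, 107 with the mouse as a block (1 member), 2 members and 714 genes without control mouse 4, 2 members and 791 genes with DESeq2, and 1 to 2 members and 58 to 665 genes without 1 library. The cause was not tested. With the mouse as a block, 5, 5 and 1 members were called, so the pairing changed no member's call. With the replicate number as a block, which pairs nothing across treatments, 1 member in peri-tumor tissue and 4 in tumors were called. Signs turned for uncalled values: Car5a for TCM in peri-tumor tissue (-0.00239 with a filter of 1 CPM, -0.00336 with only the groups compared, -0.00020 with the replicate block, -0.02 without control mouse 4, -0.03 to 0.07 without 1 library) and the Car8 difference (0.06 without control mouse 4, -0.11 to 0.05 without 1 library). Without 1 library, Car2 ranged from -0.18 to 0.24 in TCM tumors and -0.04 to 0.20 for TCM in peri-tumor tissue, and the Car13 difference (-0.37) from -0.63 to 0.27, the sign turning without TCM peri-tumor library 2. Other scalings moved the median of all genes by at most 0.011. Depth limits Car4, Car9 and Car12, and Car1 in tumors.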

Other observations

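Car3 has been linked to defence against reactive oxygen, and 21 genes of that defence were counted beside it. In control tumors 6 were higher and 10 lower, among them Gpx1, which reduces hydrogen peroxide (log2 -2.41 ± 0.33), Cat, catalase (-0.99 ± 0.14), Sod2, the mitochondrial superoxide dismutase (-1.04 ± 0.15), and Gpx4, which reduces lipid peroxides (1.05 ± 0.14). In TCM tumors 4 were higher and 9 lower. With TCM, 5 were higher and 1 lower in peri-tumor tissue, including Gclc, of glutathione synthesis (1.50 ± 0.24), Cat (0.79 ± 0.14) and Hmox1, haem oxygenase (-1.75 ± 0.33). In tumors 3 were higher with TCM: Gclm (0.99 ± 0.22), Cat (0.59 ± 0.14) and Gpx1 (1.08 ± 0.31). Over all tested genes, 43.2% were called in control tumors, 32.9% in TCM tumors, and 14.1% and 7.28% for TCM in peri-tumor tissue and in tumors. All calls are edgeR adjusted p under 0.05 over all tested genes.

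Of 19 periportal hepatocyte genes, 2 were higher and 13 lower in control tumors (median log2 -1.15), and 3 were higher and 12 lower in TCM tumors (median -0.95). Over all tested genes, 22.0% were called higher and 21.2% lower in control tumors, and 17.3% and 15.6% in TCM tumors. Fbp1, of gluconeogenesis, fell by 1.94 ± 0.21 and Hal, of histidine breakdown, by 1.69 ± 0.19 in control tumors. With TCM, 5 of the 19 were higher in tumors (4.55% of all genes), among them Hal (0.94 ± 0.19) and Uroc1, also of histidine breakdown (0.49 ± 0.11). The 22 pericentral genes had medians of -3.01 in control and -1.96 in TCM tumors. The difference between the lists was not tested.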
